A study of Mus musculus with 12 samples.

Results

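Alternative activation of macrophages is the state that the cytokine IL-4 brings about, and it is read in mouse cells by a small group of marker genes. The 9 genes described here are Retnla, Chil3, Chil4, Mrc1, Mgl2, Clec10a, Tgm2, Cd200r1 and Cdh1. They were chosen as commonly used markers of this state, were found by matching Ensembl gene identifiers to mouse symbols, and are 9 of the 56941 genes of the count tables. Their RNA was measured in 12 libraries of macrophages grown from bone marrow monocytes of C57BL/6J mice, 3 libraries in each of 4 groups. WT M0 and miR-210 KO M0 cells were differentiated for 7 days in L929-conditioned medium, a source of the macrophage growth factor M-CSF, and these control wells were kept without IL-4. WT M2 and miR-210 KO M2 cells were differentiated in the same way and then given 20 ng/mL IL-4 for 72 hours. The KO allele came from a cross of floxed miR-210 mice with Gata-1 Cre mice, KO and WT mice were bred from heterozygotes, and the deletion is thus not limited to macrophages.

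IL-4 binds a receptor that contains IL-4R alpha, Janus kinases bound to the receptor phosphorylate STAT6, and STAT6 moves to the nucleus and binds DNA. In mouse macrophages this pathway is known to switch on secreted proteins (RELM alpha and the chitinase-like proteins), lectin receptors that take up glycoproteins, the cross-linking enzyme transglutaminase 2, and the adhesion protein E-cadherin. CD200R1 is an inhibitory receptor of myeloid cells for CD200.

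The totals of the 12 libraries lay between 7930525 and 10167695 counts. Mir210, the deleted gene, had 1, 3 and 5 counts in WT M0, then 1, 2 and 1 in WT M2, and no count in any of the 6 KO libraries. The 8 macrophage markers examined, among them Adgre1, Cd68 and Csf1r, summed to between 7709 and 10019 CPM in every library. CPM are counts scaled to library size with TMM factors. Lyz2 made up much of this sum, at 5202 CPM in WT M0 and 3990 CPM in WT M2. By the calls described below, 2 of the 8 rose and 3 fell with IL-4 in WT, against 45.4% of all genes called. In KO, 1 rose and 4 fell, against 36.6%. Fcgr1 fell most, from 498 to 63.3 CPM in WT and from 334 to 55.3 CPM in KO. Markers of T cells, B cells, NK cells and epithelial cells were at or under 3 counts in each library for all genes listed, 4, 4, 3 and 6 genes. The 5 fibroblast genes summed to 0.889 to 1.24 CPM in WT M0 and 1.78 to 2.29 CPM in KO M0. In M2 they summed to 0.235 to 0.526 CPM in WT and 0.122 to 0.875 CPM in KO. The 4 erythroid genes reached 3.17 CPM in sum in a WT M0 library and 3.79 CPM in a WT M2 library and had no counts in KO, and the 9 neutrophil genes summed to at most 5.89 CPM in any library. Of the neutrophil genes S100a8 rose with IL-4 in WT (0.798 to 3.17 CPM, adjusted p = 2.3e-04, edgeR). In KO M0 and KO M2 S100a8 was at 1.60 and 1.37 CPM. The difference of its change between the genotypes was not called (adjusted p = 0.12, edgeR). Of 6 mast cell, basophil and eosinophil genes Siglecf rose, from 0.280 to 4.601 CPM in WT and from 0.197 to 4.61 CPM in KO, and the other 5 were at or under 3 counts in every library. The part of these traces in the results was not tested. Because the labelled batch was a different one in each of the 4 groups, effects of batch and of group cannot be told apart, and the numbers 1 to 3 of the libraries were not tied to sample names. Nothing states that the 3 libraries of a group came from separate mice, so p values measure the spread between these libraries, which may be technical.

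With IL-4, 8 of the 9 genes rose in WT and the same 8 in miR-210 KO macrophages, and the exception in both was Cd200r1. Calls required a change of more than 1.2-fold in either direction together with an adjusted p under 0.05 (edgeR's quasi-likelihood test on the counts, Benjamini-Hochberg (BH) adjustment over all genes tested), among protein-coding genes with an average normalized count over 10. Of 11135 such genes, 45.4% were called in WT and 23.6% were called higher in WT M2 than WT M0. Of 11116 such genes, 36.6% were called in KO and 18.5% were called higher in KO M2 than KO M0. Because the 9 genes are known for this response, their share above that background describes the cells and is not an independent result. The median log2 fold change of the 9 genes was 8.79 in WT and 8.43 in KO, or 4.59 and 4.09 with the 4 genes that had at most 3 counts in M0 set at their lower limits, against -0.0012 and -0.0078 over all genes tested. In bulk RNA, fewer cells that express a gene and less RNA per cell cannot be told apart.

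**Figure D1:**
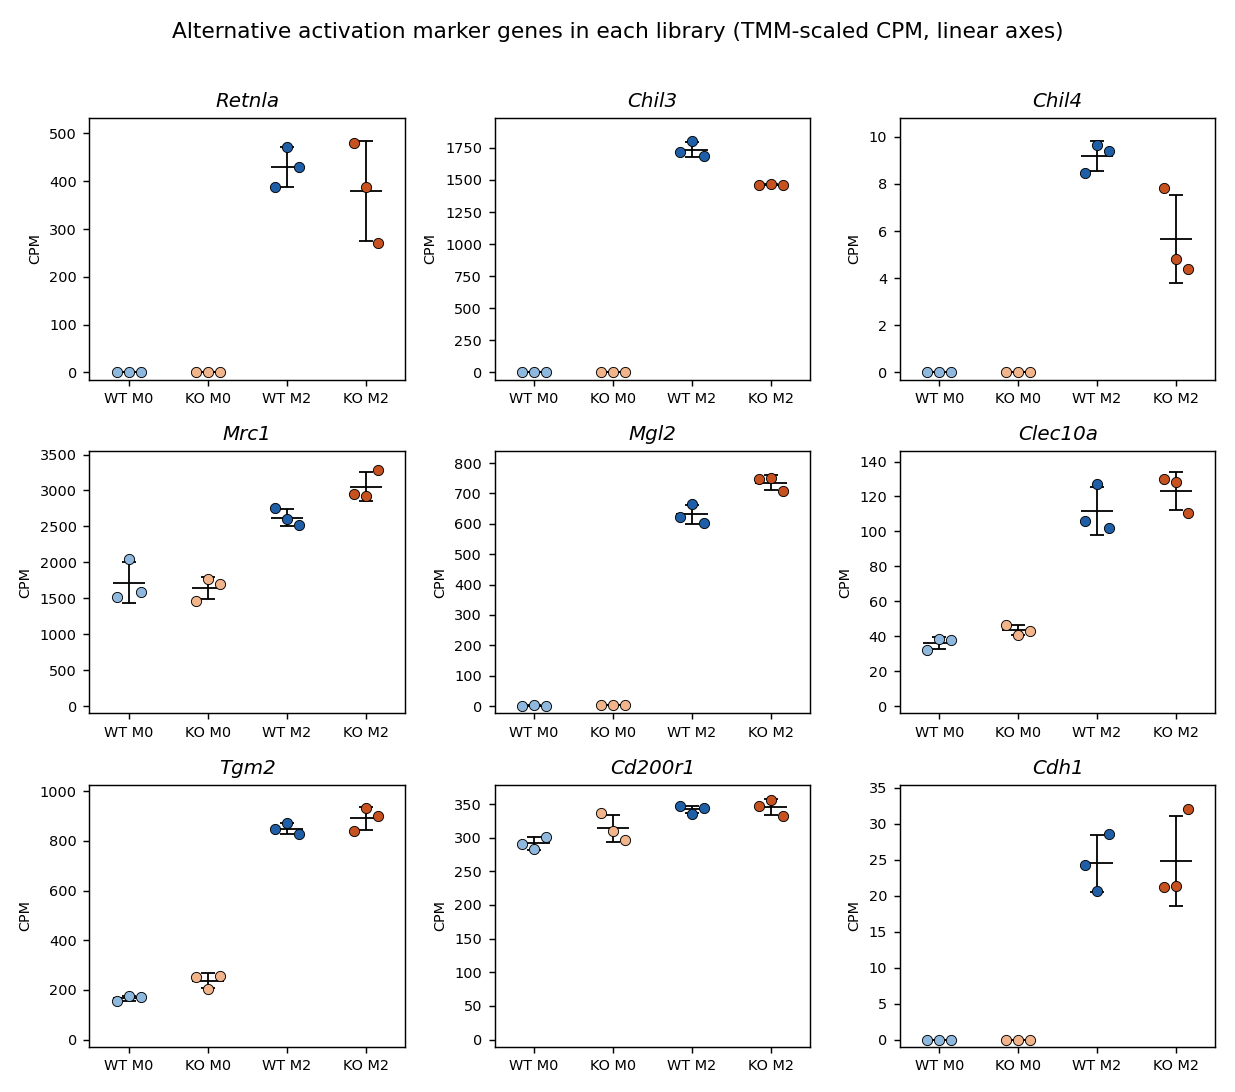
Level of each of the 9 genes in each library, in TMM-scaled CPM on linear axes (points: 3 libraries a group, bars: mean and SD, n = 3). Retnla, Chil3, Chil4, Mgl2 and Cdh1 lie at or near 0 in M0 and are clearly present in M2, while Mrc1, Clec10a, Tgm2 and Cd200r1 are present in all 4 groups.

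Retnla encodes RELM alpha (Fizz1), a small secreted protein of the resistin family (ENSMUSG00000061100, chr16:48662895-48664824, plus strand, GRCm39). It had no count in any of the 6 M0 libraries. In WT M2 it had 3297, 4493 and 3478 counts, and in KO M2 3917, 3706 and 2161. All M2 libraries thus lay far above all M0 libraries. Scaled to library size these were 388, 472 and 429.7 CPM in WT M2 and 479, 387 and 270.1 CPM in KO M2, so that the KO M2 libraries enclosed the range of the WT M2 libraries at both ends. The mean levels were 430 ± 42.3 CPM in WT M2 and 379 ± 105 CPM in KO M2 (SD, n = 3 each), which is at least 1129-fold higher than WT M0 and at least 1136-fold higher than KO M0 when 0 is replaced by 3 counts per library. Both increases were called (adjusted p = 2.7e-12 in WT and 3.0e-09 in KO, edgeR). Between the genotypes in M2 the log2 fold change was -0.18 (standard error 0.14, adjusted p = 0.72, edgeR). This sign rested on a single library: without the KO M2 library numbered 3 the log2 fold change was 0.012. Of its relatives, Retnlb, Retnlg and Retn had too few counts in every comparison to be tested.

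Chil3 encodes Ym1, a secreted chitinase-like protein that binds glycans without chitinase activity (ENSMUSG00000040809, chr3:106054870-106074880, minus strand). It had 3, 0 and 0 counts in WT M0, none in KO M0, 14617, 17127 and 13656 in WT M2, and 11935, 14046 and 11673 in KO M2. Scaled to library size, the pooled counts of WT M2 were 15913 times the 3 counts of WT M0. The 95% counting interval (exact binomial) ran from 5445 to 77166. In KO the level was at least 4384-fold higher in M2 than in M0. Intervals and limits of this kind cover counting error only. In M2 the WT level was 1719, 1801 and 1687 CPM and the KO level 1459, 1466 and 1459 CPM. Every KO M2 library was therefore under every WT M2 library, by a margin larger than the spread within either group. The log2 fold change was -0.24 (standard error 0.05), with an adjusted p of 0.018 (edgeR) but a size under 1.2-fold, so it was not called. That adjusted p was 0.48 in a fit of all 12 libraries and between 0.012 and 0.10 with 1 library left out.

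Chil4, the gene of the related Ym2 protein (ENSMUSG00000063779, chr3:106108806-106126823, minus strand), lies beside Chil3. It had no count in M0, 72, 92 and 76 counts in WT M2, and 64, 46 and 35 in KO M2. This is at least 24.1-fold higher than M0 in WT and at least 17.0-fold higher in KO, and both increases were called (adjusted p = 3.7e-08 and 5.2e-06, edgeR). The KO M2 libraries were all under the WT M2 libraries, at 5.67 ± 1.88 against 9.18 ± 0.63 CPM (SD, n = 3 each). The log2 fold change of -0.70 (standard error 0.19) had an adjusted p of 0.12 (edgeR) and was not called, but it was called without the KO M2 library numbered 1, at -0.99, and without a filter on low counts, at -0.70. Of the 50-base stretches of the longest coding transcript of Chil4, 20.4% also occur in other genes, and of Chil3 27.7%, chiefly in each other, so a read from a shared stretch can be counted on either gene or on neither. Per exon length the level of Chil3 was 289 to 327 times that of Chil4 in WT M2 and 300.2 to 537 times in KO M2. With the length of the longest coding transcript in place of all exons (1539 bases for Chil4 instead of 2817), a choice added after seeing the data, these ranges were 170 to 192 and 176 to 315. The other 5 chitinase-like and chitinase genes examined, Chi3l1, Chil5, Chil6, Chia1 and Chit1, had too few counts to be tested.

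The stretches before the starts of Retnla, Chil3 and Chil4 are shown because these genes went from no or next to no counts to high or moderate levels with IL-4. RefSeq start sites were available for 5 of the 9 genes, Mrc1, Chil3, Chil4, Mgl2 and Retnla, and the 250 bases before each start (GRCm38.p6) were searched on both strands for letters that STAT proteins bind. Each stretch was found once in GRCm39, whose coordinates are given, and is printed on the strand of the gene up to the base before the annotated gene. Capitals mark TTC and GAA with 4 bases between them, the spacing that STAT6 prefers, or with 3 bases between them (TTCNNNGAA), the spacing shared by other STAT proteins.
Retnla, chr16:48662722-48662894, plus strand: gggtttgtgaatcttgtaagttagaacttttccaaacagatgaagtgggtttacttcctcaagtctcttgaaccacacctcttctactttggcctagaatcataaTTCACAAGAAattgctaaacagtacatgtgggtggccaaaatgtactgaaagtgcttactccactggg
Chil3, chr3:106074881-106075130, minus strand: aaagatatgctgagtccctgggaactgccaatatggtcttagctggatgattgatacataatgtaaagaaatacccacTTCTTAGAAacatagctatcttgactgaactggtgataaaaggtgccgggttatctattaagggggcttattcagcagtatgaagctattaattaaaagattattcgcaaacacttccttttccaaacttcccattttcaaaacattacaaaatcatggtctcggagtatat
Chil4, chr3:106126824-106127045, minus strand: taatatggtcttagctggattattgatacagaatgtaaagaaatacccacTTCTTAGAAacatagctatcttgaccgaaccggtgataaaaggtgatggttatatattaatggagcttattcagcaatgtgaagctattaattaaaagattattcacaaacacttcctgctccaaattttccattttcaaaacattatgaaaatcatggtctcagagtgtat

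Retnla had 1 match with the spacing of 4 bases, from 145 to 136 bases before its RefSeq start, a pattern found in 5.85% of 32851 promoter windows of this length. Chil3 and Chil4 each had 1 match to TTCNNNGAA with the same letters, TTCTTAGAA, a pattern found in 7.02% of the windows. Over the aligned part the stretches of Chil3 and Chil4 were 90.5% identical, and the longest coding transcripts of the pair were 89.1% identical. Mrc1 and Mgl2 had no match to either spacing. Of their windows of 250 bases, 176 and 21 bases lie before the annotated gene, and the rest lies within it. GAGGAA, the letters at the core of PU.1 sites, matched 3 times in Mrc1 and once each in Mgl2 and Retnla (23.3% of windows), and TTNNGNAA, a loose form of the C/EBP site, matched in all 5 genes (36.8% of windows). One C/EBP match of Retnla overlaps its PU.1 match. These are matches of letters, and binding was not measured.

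Mrc1 encodes the mannose receptor CD206, which takes up glycoproteins that end in mannose (ENSMUSG00000026712, chr2:14234151-14336926, plus strand). It was already high in M0, at 1514, 2046 and 1587 CPM in WT and 1467, 1770 and 1697 CPM in KO, and these ranges overlap. In M2 it was 2751, 2603 and 2514 CPM in WT and 2955, 2920 and 3284 CPM in KO. Each M2 library was above each M0 library, and each KO M2 library above each WT M2 library. The log2 fold change with IL-4 was 0.62 in WT (standard error 0.10, adjusted p = 2.2e-04, edgeR) and 0.89 in KO (standard error 0.09, adjusted p = 4.4e-06, edgeR). The difference of these changes was 0.28 (standard error 0.14) and had an adjusted p of 0.59 in the test of the interaction (edgeR). Between the genotypes in M2 the log2 fold change was 0.22 (standard error 0.06, adjusted p = 0.069, edgeR), and in M0 it was -0.06 (standard error 0.12, adjusted p = 0.91, edgeR), where it turned to 0.10 without the WT M0 library numbered 2. The precursor of miR-511 lies within Mrc1 on the same strand and had 63 to 176 counts. Of the relatives tested, Ly75 (DEC-205) also rose, by 1.55 in WT and 1.14 in KO on the log2 scale, and Pla2r1 was not called, at -0.75 and 0.42.

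Mgl2 and Clec10a encode CD301b and CD301a, paired C-type lectins for galactose and N-acetylgalactosamine (ENSMUSG00000040950, chr11:70020954-70028376, and ENSMUSG00000000318, chr11:70047023-70061660, both on the plus strand). Mgl2 had 7, 23 and 9 counts in WT M0, 15, 27 and 21 in KO M0, 5289, 6334 and 4892 in WT M2, and 6123, 7205 and 5658 in KO M2. Its log2 fold change with IL-4 was 8.79 in WT (standard error 0.16, adjusted p = 2.0e-13, edgeR) and 8.43 in KO (standard error 0.13, adjusted p = 4.1e-13, edgeR). Clec10a started higher and rose less. Its levels were 32.2, 38.3 and 37.6 CPM in WT M0, 46.3, 40.6 and 42.9 CPM in KO M0, 106, 127 and 102 CPM in WT M2, and 130.2, 128 and 110.5 CPM in KO M2. Its log2 fold change with IL-4 was 1.63 in WT (standard error 0.10, adjusted p = 1.4e-08, edgeR) and 1.51 in KO (standard error 0.09, adjusted p = 5.6e-08, edgeR).

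The balance of the paired lectins thus turned over with IL-4. Per exon length Mgl2 stood at 0.0479 ± 0.0263 times Clec10a in WT M0 and 0.0622 ± 0.0171 times in KO M0, and at 7.17 ± 0.49 times in WT M2 and 7.59 ± 0.44 times in KO M2 (SD, n = 3 each). The ranges of this ratio overlap between the genotypes in M0 and in M2. The longest coding transcripts were 80.6% identical over their aligned part, and 15.9% of the 50-base stretches of Mgl2 and 9.97% of those of Clec10a occur in other genes. In M2, Mgl2 was at 622, 666 and 604 CPM in WT and 749, 752 and 707 CPM in KO, so that the groups did not overlap. The log2 difference of 0.23 (standard error 0.05, adjusted p = 0.053, edgeR) was not called, though it was without the WT M2 library numbered 2, at 0.265 (adjusted p = 0.0419, edgeR), just past 1.2-fold. Clec10a differed by 0.14 in M2 (standard error 0.08, adjusted p = 0.61, edgeR) and by 0.26 in M0 (standard error 0.10, adjusted p = 0.38, edgeR), where every KO library was above every WT library. Asgr2, of the same lectin family, rose in WT by 1.88 on the log2 scale and was at 0.85 in KO (adjusted p = 0.078, edgeR). Its interaction was not called (adjusted p = 0.62, edgeR), and Asgr2 had at most 27 counts in a library. CD301b is also known from dendritic cells, and of the 5 dendritic cell genes examined Zbtb46 rose as well, from 0.221 to 14.9 CPM in WT and from 0.385 to 10.99 CPM in KO. The list summed to 0.309 to 0.9498 CPM over the M0 libraries and 10.1 to 18.0 CPM over the M2 libraries. Zbtb46 made up most of the M2 sums. Xcr1 had too few counts to be tested, at 0.254 CPM in WT M0, 0.266 in WT M2, 0.330 in KO M0 and 0.413 in KO M2. Flt3, Siglech and Cd209a were at or under 3 counts in all libraries, and the part of such cells in the result was not tested.

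**Figure D2:**
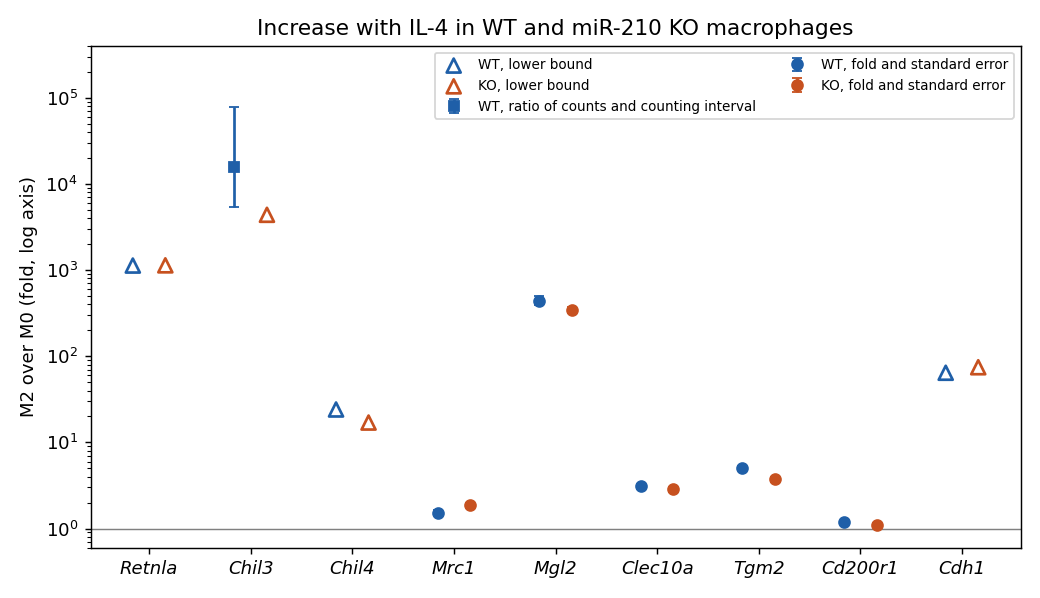
Increase from M0 to M2 in WT (blue) and miR-210 KO (orange), as a fold on a log axis. Circles are fitted folds with their standard error (edgeR), triangles are lower bounds for genes with no counts in M0, and the square is a ratio of counts with its 95% counting interval. The increases span from near 1 for Cd200r1 to 15913-fold for Chil3 in WT, with at least 4384-fold for Chil3 in KO.

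Tgm2 encodes transglutaminase 2, which cross-links proteins in and outside the cell (ENSMUSG00000037820, chr2:157958322-157988359, minus strand). Its levels were 156, 174 and 171 CPM in WT M0, 253, 204 and 256.1 CPM in KO M0, 848, 874 and 829 CPM in WT M2, and 841, 933 and 901 CPM in KO M2. Every KO M0 library was above every WT M0 library, whereas the M2 groups overlap. The log2 fold change with IL-4 was 2.35 in WT (standard error 0.07, adjusted p = 1.6e-11, edgeR) and 1.91 in KO (standard error 0.10, adjusted p = 9.8e-09, edgeR). Tgm2 thus rose 5.11-fold in WT and 3.75-fold in KO. The interaction was -0.44 (standard error 0.12) with an adjusted p of 0.19 (edgeR), so the increases were not shown to differ in that test. With the DESeq2 Wald test the interaction was called, at -0.44 and an adjusted p of 0.049, and also without a filter on low counts (adjusted p = 0.0045, edgeR) and without the KO M0 library numbered 2 (adjusted p = 0.0189, edgeR).

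In M0 the difference of Tgm2 between the genotypes, with a log2 value of 0.51 (standard error 0.10, adjusted p = 0.058, edgeR), was the largest in relation to its error among the 5 of the 9 genes that had enough counts in M0. It was called in 4 of 8 alternatives and in 2 of the 6 fits that left out 1 library, those without the library numbered 2 of WT M0 or of KO M0. Among the 8, a required log2 fold change of 1 could not be met at a log2 value of 0.51. In M2 the difference of Tgm2 was 0.07 (standard error 0.05, adjusted p = 0.69, edgeR). Of the relatives of Tgm2, F13a1, the A subunit of coagulation factor XIII, fell by 1.38 in WT and by 1.58 in KO on the log2 scale. Tgm1 fell by 0.95 in WT and was at -0.51 in KO (adjusted p = 0.22, edgeR). The interaction of Tgm1 was not called (adjusted p = 0.78, edgeR). Genes on the opposite strand of Tgm2, Rprd1b and Gm20412, were counted apart because the counting was strand-specific.

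Cd200r1, the gene of the CD200 receptor (ENSMUSG00000022667, chr16:44586096-44615343, plus strand), had the smallest log2 fold change with IL-4 of the 9 genes. Its levels were 291, 283 and 301 CPM in WT M0, 336, 309 and 297 CPM in KO M0, 347, 336 and 344 CPM in WT M2, and 347, 356 and 333 CPM in KO M2. The WT M2 libraries were above the WT M0 libraries, but groups next to each other in the order of levels (WT M0, KO M0, WT M2, KO M2) overlapped. The log2 fold change with IL-4 was 0.24 in WT (standard error 0.06) with an adjusted p of 0.0051 (edgeR), under 1.2-fold in size, and 0.14 in KO (standard error 0.08, adjusted p = 0.19, edgeR). Between the genotypes it was 0.11 in M0 (standard error 0.08, adjusted p = 0.72, edgeR) and 0.02 in M2 (standard error 0.05, adjusted p = 0.95, edgeR). It was not called in any alternative of any comparison. Its relative Cd200r4 fell by 0.32 in KO with IL-4 and was at 0.08 in WT. The ligand gene Cd200 rose by 0.85 in WT and was at 0.29 in KO. The interaction was called for neither Cd200r4 nor Cd200 (adjusted p = 0.32 and 0.67, edgeR).

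Cdh1 encodes E-cadherin, a calcium-dependent adhesion protein best known from epithelia (ENSMUSG00000000303, chr8:107329941-107396880, plus strand). It had no count in any M0 library, 206, 197 and 231 counts in WT M2, and 173, 204 and 257 in KO M2. This is 24.5 ± 3.92 CPM in WT M2 and 24.9 ± 6.29 CPM in KO M2 (SD, n = 3 each), at least 64.3-fold higher than M0 in WT and at least 74.6-fold higher in KO, and both increases were called (adjusted p = 4.2e-09 and 7.0e-08, edgeR). The genotypes overlap in M2, and their log2 difference was 0.03 (standard error 0.15, adjusted p = 0.98, edgeR). The epithelial markers Epcam, Krt8 and Krt18 had no count in any of the 12 libraries. Of the partners of E-cadherin at the membrane, Ctnna1, Ctnnb1 and Jup (plakoglobin) rose with IL-4 in both genotypes, by 0.34, 0.64 and 1.80 on the log2 scale in WT and by 0.28, 0.50 and 1.32 in KO, and Ctnnd1 was not called. Jup was the 1 gene called between the genotypes in M2 of 5 tested in this family, against 0.98% of all genes. It was lower by 0.43 on the log2 scale in KO M2 than in WT M2 (standard error 0.09, adjusted p = 0.031, edgeR).

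The 9 genes sat at very different heights, as CPM per kilobase of exon. In WT M0, Mrc1 was highest (219 ± 36.8), followed by Cd200r1 (87.0 ± 2.77), Tgm2 (34.9 ± 2.02), Clec10a (12.4 ± 1.15) and Mgl2 (0.606 ± 0.370), with the other 4 at or near 0 (SD, n = 3). In WT M2 the order was Chil3 (992 ± 33.5), Retnla (696 ± 68.4), Mrc1 (335 ± 15.3), Mgl2 (275 ± 13.8), Tgm2 (178 ± 4.69), Cd200r1 (102 ± 1.64), Clec10a (38.5 ± 4.71), Cdh1 (5.28 ± 0.84) and Chil4 (3.26 ± 0.22; SD, n = 3 each). The KO libraries had the same order in each state, and in M2 no neighbours in this order overlapped in either genotype. Per length of the longest coding transcript Chil4 (5.96 ± 0.41) and Cdh1 (5.51 ± 0.88) changed places in WT M2 and overlapped in both genotypes, and Retnla and Mrc1 overlapped in KO M2, while the rest of the order held. Mrc1, the standard surface marker, was thus behind Chil3 and Retnla in M2 and highest in M0.

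**Figure D3:**
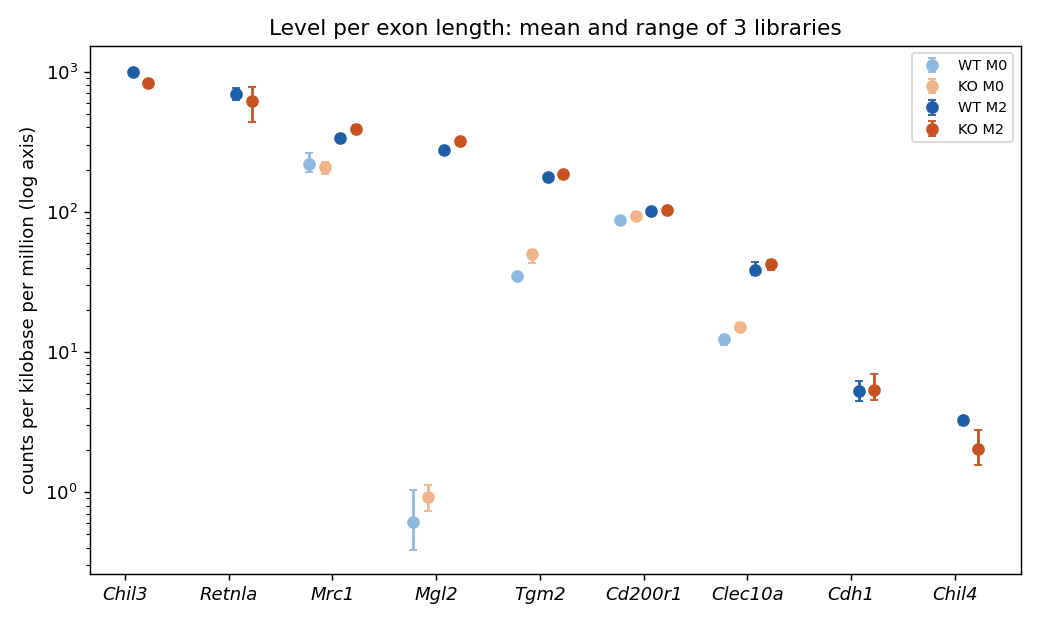
CPM per kilobase of exon for the 9 genes on a log axis, ordered by WT M2 (points: mean of 3 libraries, bars: lowest to highest library). Groups in which a library had no count are not drawn. Chil3 and Retnla are on top in M2, and Mrc1 is on top in M0.

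Between the genotypes, none of the 9 genes was called in either state. In M0, 5 of the 9 had enough counts to be tested and 0 were called, against 0.461% of all 14089 genes tested, and in M2 0 of 9 were called, against 0.98% of 13980 (0.408% higher and 0.572% lower in KO). These background counts turned on single libraries: the 65 genes called in M0 became 20 to 302 with 1 library left out (most without the WT M0 library numbered 2), and the 137 called in M2 became 53 to 215 (most without the KO M2 library numbered 3). The DESeq2 Wald test called 1 of the 9 genes in M0, Tgm2, and 0 in M2. Unadjusted p values under 0.05 were found for Clec10a and Tgm2 in M0 and for Chil3, Chil4, Mrc1 and Mgl2 in M2, that is 2 of 5 and 4 of 9, and for 10.0% and 10.7% of all genes tested. The median log2 fold change was 0.26 over the 5 genes in M0 and 0.03 over the 9 genes in M2, against 5.0e-04 and 0.0020 over all genes tested. In Chil3, Chil4, Mrc1 and Mgl2, the same 4 genes, the M2 groups did not overlap. The share of all genes without overlap was not counted, so this has no background to be set against.

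**Figure D4:**
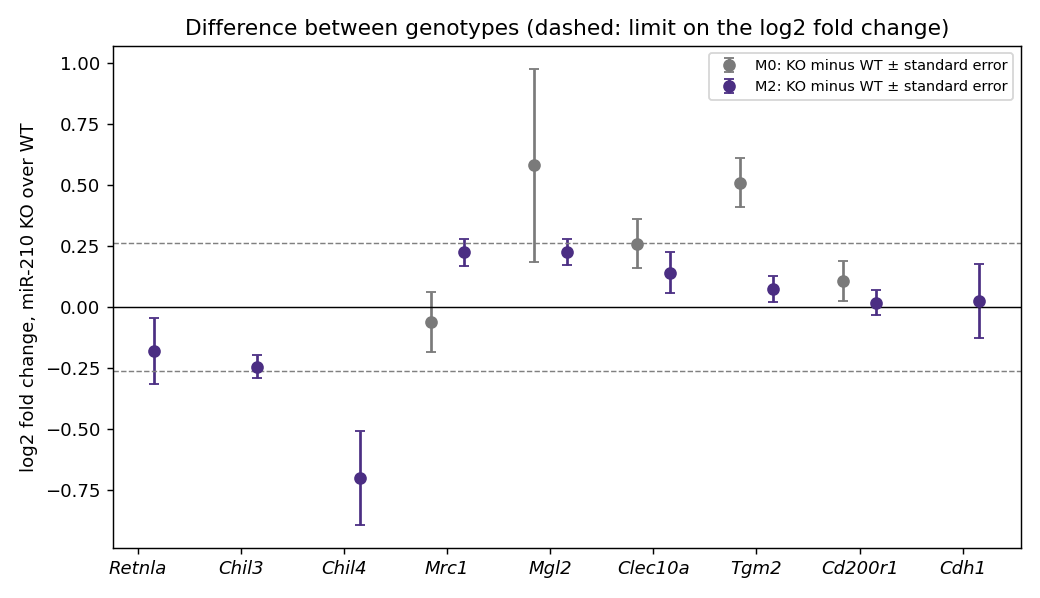
Log2 fold change of miR-210 KO over WT in M0 (grey) and M2 (purple) with its standard error (edgeR, 3 libraries against 3), and the limit of 1.2-fold in either direction as dashed lines. Tgm2 in M0 and Chil4 in M2 lie outside this limit by more than their standard error, and neither passed the adjusted test.

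The question whether the response to IL-4 differs with genotype was put to all 12 libraries as an interaction. It called 0 of the 9 genes and 0% of the 14825 genes tested, of which 1327 had an unadjusted p under 0.05, and the DESeq2 Wald test called 92 genes, with Tgm2 as the single one of the 9. With 1 library left out it called 0 to 77 genes, 77 without the KO M0 library numbered 2 and 65 without the WT M0 library numbered 2. Clec10a (-0.12, standard error 0.14), Cd200r1 (-0.09, standard error 0.09) and Mgl2 (-0.36, standard error 0.32) had adjusted p values between 0.78 and 0.84 (edgeR). For Retnla, Chil3, Chil4 and Cdh1 the interaction carries no information, because the M0 libraries held no or next to no counts.

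MiR-210 acts on messenger RNAs through its seed, so the 3′ ends of the 9 messengers were searched for it. The mature miR-210-3p from RefSeq, with its seed (bases 2 to 8) in capitals, is shown because no gene of the list had its match.
mmu-miR-210-3p: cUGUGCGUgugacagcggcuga

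The match to this seed, ACGCACA, was absent from the 3′ UTRs (160 to 1631 bases long, canonical transcripts of GENCODE, GRCm39) of all 9 genes and present in 3.48% of 20858 coding genes. The match to the seed of the other strand, miR-210-5p, was found once, in Cdh1, and in 13.6% of coding genes. Other kinds of sites and other transcripts were not searched. The authors list Tgm2 among the genes higher in KO M0 that target prediction resources assign to miR-210.

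Genes of the receptor pathway and of the nuclear response give the setting of the 9 markers. Of 12 genes of IL-4 receptor signalling, 5 rose and 4 fell with IL-4 in both genotypes. For this and the following lists the background is the 45.4% of genes called in WT (23.6% higher, 21.8% lower) and the 36.6% called in KO (18.5% higher, 18.1% lower). Cish and Socs1, feedback inhibitors of cytokine signalling, rose by 5.67 and 4.54 on the log2 scale in WT and by 5.49 and 4.15 in KO, and the receptor genes Il4ra and Il13ra1 fell by 0.99 and by 1.49 in WT and by 0.86 and by 1.66 in KO. Stat6 was at -0.04 in WT and -0.02 in KO, and not called. Of 12 transcription factor genes tied to this response, 9 rose and 2 fell (Rbpj and Kdm6b) in WT, and 9 rose and 1 fell (Rbpj) in KO. The list was led by Bhlhe40 (6.82 and 6.39), Egr2 (4.11 and 3.45) and Irf4 (3.62 and 3.83). None of these 24 genes was called between the genotypes in either state, against a background of 0.461% of genes in M0 and 0.98% in M2. Of 23 other IL-4 response genes tested, 19 rose and 2 fell in WT and 18 rose and 3 fell in KO. Among them Fn1 (fibronectin) rose by 9.68 in WT and 9.22 in KO, and Rnase2a, without counts in M0, reached 79.1 CPM in WT M2 and 60.8 CPM in KO M2. Flt1, at most 2 counts in any M0 library, reached 63.1 CPM in WT M2 and 33.6 CPM in KO M2.

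Some of these other response genes were called between the genotypes. Arg1, the gene of arginase 1, was higher by 0.85 on the log2 scale in KO M0 (adjusted p = 0.034, edgeR). It was the 1 gene called of 18 tested, against 0.461% of all genes. In M2 Arg1 was at 0.04, with means of 1882 CPM in WT and 1926 CPM in KO. In M2, Flt1, Mmp13, Il1rn and Slc7a2 were lower in KO than in WT, with log2 differences of -0.91, -0.65, -0.56 and -0.31. Their adjusted p lay between 0.0060 and 0.036 (edgeR). They were 4 of the 22 genes tested, against 0.572% of all genes called lower. Of the genes of classical activation, Cd38 was called higher in KO M2 (0.42, adjusted p = 0.012, edgeR). This was 1 of 9 tested, against 0.408% of all genes called higher. Another 2 were higher in KO M2 without a call, and the rest were lower, also without a call. The median log2 difference of the 9 was -0.35. With IL-4, 2 rose and 4 fell of 10 tested in WT, and 1 rose and 5 fell of 9 tested in KO. The calls of these list genes between the genotypes were not repeated with 1 library left out.

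For each marker the genes closest in pattern were found by the distance between centred log2 CPM over the 12 libraries, which describes likeness and nothing more, and which is set chiefly by the change with IL-4. Retnla and Chil3 were among each other's closest genes, at a distance of 3.38, and shared Fn1 and Ocstamp as the others of the 3 closest. The closest genes were Btbd17 for Chil4, Clcn5 for Mrc1, Kcnd3 for Mgl2, Galm for Clec10a, Dusp4 for Tgm2, Cbfb for Cd200r1 and Il31ra for Cdh1, at distances of 0.875, 0.294, 1.28, 0.333, 0.427, 0.110 and 0.843. Distances grow with the size of the change, so they are not comparable between markers.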

How the data were processed

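The 12 libraries were made from total RNA depleted of ribosomal RNA and sequenced as stranded paired-end reads. The authors trimmed reads with Trimmomatic, removed duplicates with Picard, aligned to GRCm39 with STAR, counted with featureCounts, and deposited the counts in 4 tables, each for a pair of groups. Removing duplicates can lower the counts of abundant or short genes. The deposited signal tables hold these counts after division by size factors that were set within each pair, and were used only as an alternative for levels. Columns were tied to groups by name.

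Counts were tested with edgeR 4.0.16 in R 4.3.3 (TMM normalization, filterByExpr), on the 6 libraries of a pair or all 12 for the interaction, which had no limit on size. CPM was scaled by TMM over all 12 libraries, and distances used a prior count of 2. Alternatives were the DESeq2 1.42.0 Wald test, other normalizations, filters and limits, all 12 libraries in 1 model, a block for the library number, and each library left out. Tests were checked on simulated counts. Libraries of a group differed beyond counting noise. The members and gene lists were chosen with earlier results of these data known. The genes named are the 9 markers, Mir210, Arg1, family members tested and the 3 genes closest in pattern. For each list, at most 3 called genes with the largest change in WT were named, or those called between genotypes. Il4ra, Il13ra1, Stat6, Rbpj, Kdm6b and marker genes of macrophages and of other cell types were named after their values were seen.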

Additional observations from a re-analysis of the deposited data

How the results depend on the processing

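With IL-4, the same 8 genes were called in WT and in KO under the DESeq2 Wald test, other normalizations, other filters, a model of all 12 libraries and with any 1 library left out, and a required log2 fold change of 1 was the sole alternative that ended a call, that of Mrc1. Between the genotypes in M0, 1 of the 9 genes, Tgm2, was called by the DESeq2 Wald test, with low counts left in, and in the model of all 12 libraries, and between 0 and 1 with 1 library left out. In M2, 1 gene, Chil4, was called with low counts left in. Between 0 and 1 gene was called with 1 library left out, Chil4 without KO M2 library 1 and Mgl2 without WT M2 library 2. For the interaction, 1 gene, Tgm2, was called by the DESeq2 Wald test and with low counts left in, and between 0 and 1 with 1 library left out. The cause was not tested. Small differences changed sign with 1 library left out, when Mrc1 in M0 lay between -0.14 and 0.10 (0.02 without KO M0 library 1), Retnla in M2 between -0.38 and 0.012, Cd200r1 in M2 between -0.0030 and 0.043, and Cdh1 in M2 between -0.19 and 0.15 (-0.09 without WT M2 library 2). The interactions of Retnla (-0.39 to 0.0086), Chil3 (-0.25 to 3.48) and Cdh1 (-0.20 to 0.14, with -0.09 among them) did so as well. From the deposited normalized values, Chil3 in KO M2 was at 1449 CPM, against 1462 CPM. With the length of the longest coding transcript in place of all exons, chosen after seeing the data, the ratio of Chil3 to Chil4 moved from 305 to 179 in WT M2 and from 443 to 260 in KO M2, and that of Mgl2 to Clec10a from 7.17 to 7.80 and from 7.59 to 8.26.

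With the library number as a block, 1 of the 9 genes was called in M0 (Tgm2), 1 in M2 (Chil4) and 0 for the interaction. Over all genes the block gave 284 calls in M0 and 289 in M2, against 65 and 137 without it, and 532 and 360 genes were called with low counts left in. The DESeq2 Wald test called 218 genes in M0. The correlations of deviations between libraries with the same number lay between -0.27 and 0.34. Between the genotypes in M0 they were 0.11, 0.34 and 0.02. With 3 libraries a group, these values cannot show whether the numbers pair the libraries.

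Retnla, Chil3, Chil4 and Cdh1 had at most 3 counts in M0, so their increase has a lower limit or a wide interval, and they give no test between the genotypes in M0. With 3 libraries a group, the adjusted p of Mgl2 in M2 lay between 0.0151 and 0.253 with 1 library left out (edgeR).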
